A study of Mus musculus with 2 samples.

Results

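The fibrillar collagens and the enzymes that cross-link them were described here at the RNA level in single cells of dystrophic mouse muscle. The set was 10 genes chosen by symbol out of the 24984 genes listed in the count matrices. It held 6 collagen chain genes (Col1a1, Col1a2, Col3a1, Col5a1, Col5a2 and Col5a3), 3 lysyl oxidase genes (Lox, Loxl1 and Loxl2) and the gene of 1 collagen chaperone (Serpinh1). The study asked how loss of the transcription factor YY1 in muscle stem cells (MuSCs) alters the cells around them in mdx mice, a dystrophin-deficient model of Duchenne muscular dystrophy. For each group, live mononuclear cells of pooled hind limb muscles were sequenced as 1 droplet-based library, so no test between the groups was possible. Every interval below is a 95% interval that covers the error of counting molecules, not the spread between mice.

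The Ctrl library came from Pax7 CreERT2/R26YFP; Yy1 +/+; mdx mice and the dKO library from Pax7 CreERT2/R26YFP; Yy1 f/f; mdx mice. Both carried the mdx mutation, the Cre driver and the YFP reporter, and both received tamoxifen a month before muscles were collected. The Cre enzyme is driven by Pax7, a MuSC gene, so by design the deletion is aimed at MuSCs and not at the stromal cells that make collagen. Genotype, library and pool of mice cannot be told apart in this design.

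Fibrillar collagens are the rope-like proteins of connective tissue. Type I collagen combines chains from Col1a1 and Col1a2, type III collagen is made of Col3a1 chains alone, and the type V chains (Col5a1, Col5a2, Col5a3) help to start fibrils and limit their width. Serpinh1 encodes HSP47, which holds the folded triple helix in the endoplasmic reticulum. Lox, Loxl1 and Loxl2 encode secreted enzymes that oxidise lysines so that neighbouring molecules become covalently linked. In muscle most of these chains are made by fibro-adipogenic progenitors (FAPs), the resident mesenchymal cells, and by the tenocytes of tendon, whereas mural cells (smooth muscle cells and pericytes) wrap vessels.

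The members are protein-coding genes scattered over the genome (GENCODE M21, GRCm38). Col3a1 (chr1:45311538-45349706, plus strand) and Col5a2 (chr1:45374321-45503282, minus strand) are close neighbours, 24.6 kb apart. Col1a1 lies at chr11:94936224-94953042, Col1a2 at chr6:4504814-4541544, Col5a1 at chr2:27886425-28039514 and Col5a3 at chr9:20770050-20815067. Loxl1 lies at chr9:58287738-58313186, Loxl2 at chr14:69609068-69695834 and Serpinh1 at chr7:99345376-99353239. Because several members differed between the libraries in the same direction, the sequence just before the start of transcription is shown for those whose window could be printed. RefSeq promoter windows (GRCm38.p6) were found for 5 members, Col1a2, Col3a1, Col5a1, Col5a3 and Serpinh1. The Col1a2 window overlaps an annotated exon and is not printed. The other windows, 150 bases each, end at the base before the start and overlap no annotated exon. Capitals mark the motif CCAAT, the motif GGGCGG or the motif TATAAA on either strand, and no 2 of these matches overlap.
Col3a1 (chr1:45311388-45311537, plus): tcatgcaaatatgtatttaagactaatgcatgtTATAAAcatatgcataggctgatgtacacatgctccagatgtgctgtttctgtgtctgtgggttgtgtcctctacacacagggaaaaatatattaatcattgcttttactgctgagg
Col5a1 (chr2:27886275-27886424, plus): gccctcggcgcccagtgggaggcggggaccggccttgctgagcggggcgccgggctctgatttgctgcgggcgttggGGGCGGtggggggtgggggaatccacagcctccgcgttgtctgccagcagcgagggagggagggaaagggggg
Col5a3 (chr9:20815068-20815217, minus): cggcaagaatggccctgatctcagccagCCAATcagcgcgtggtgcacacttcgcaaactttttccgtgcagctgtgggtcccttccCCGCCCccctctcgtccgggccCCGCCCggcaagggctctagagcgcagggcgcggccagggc
Serpinh1 (chr7:99353240-99353389, minus): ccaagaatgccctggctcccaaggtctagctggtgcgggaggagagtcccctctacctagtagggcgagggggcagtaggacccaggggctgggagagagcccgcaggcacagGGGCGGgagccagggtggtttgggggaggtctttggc
The windows of these collagen genes differed in their letters. The AT-rich Col3a1 window held a TATAAA 117 bases before the start, the GC-rich Col5a1 window a GGGCGG at 73 bases, and the Col5a3 window a CCAAT at 122 bases with GGGCGG on the opposite strand at 63 and 41 bases. Serpinh1 held a GGGCGG at 37 bases, and the unprinted Col1a2 window a CCAAT at 109 bases. Among 32817 mouse windows of the same length, 24.5% held CCAAT, 28.6% GGGCGG and 7.58% TATAAA on either strand. A match describes these letters and is not evidence of a bound factor.

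The matrices held 45556596 UMIs (unique molecular identifiers, each standing for 1 captured RNA molecule) in Ctrl and 33815155 in dKO, and 4010 and 3079 cells were kept. Cells were clustered without the members or other collagen pathway genes, and clusters were named from marker genes, so a class written "X-like" rests on markers alone. FAP-like cells numbered 1101 in Ctrl and 1151 in dKO, tenocyte-like cells 145 and 89, and mural-like cells 107 and 38. FAP-like cells had similar depth in the libraries, with medians of 11742 and 11868 UMIs. The names held against defining markers: Pdgfra stood at 349 and 314 CPM (UMIs of a gene per 1000000 UMIs of the class) in FAP-like cells vs. 12.4 and 18.7 in all other cells, Tnmd at 1816 and 2189 in tenocyte-like cells, and Myh11 at 3560 and 3335 in mural-like cells. Yy1, the targeted gene, stood at 161 CPM in MuSC-like cells of Ctrl (145 to 179; 364 UMIs) and 4.85 CPM in those of dKO (1.00 to 14.2; 3 UMIs in 1 of 30 cells), which fits the labels of the libraries. In FAP-like cells it stood at 121 and 132 CPM, in tenocyte-like cells at 158 and 166 and in mural-like cells at 220 and 190 (189 to 255 and 138 to 255), so the collagen-producing cells of dKO still had the transcript. Where in the gene these reads lie, and so whether they cover the deleted part, is not given in the sources used here.

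Members were largely stromal transcripts. FAP-like cells held 84.3% of all member UMIs in Ctrl and 85.3% in dKO, and tenocyte-like cells 8.66% and 7.82%. Mural-like cells, the third stromal class, held 0.207% and 0.0599%. The summed level of the 10 members was 38008 CPM in FAP-like, 37390 in tenocyte-like and 1691 in mural-like cells of Ctrl, vs. 29531, 47405 and 1374 in dKO. The level that droplets pick up from free RNA was read in B cell-like cells, which should make no fibrillar collagen, and there the members summed to 268 and 182 CPM. Mural-like cells therefore sat above that background, and FAP-like and tenocyte-like cells far above it.

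**Figure D1:**
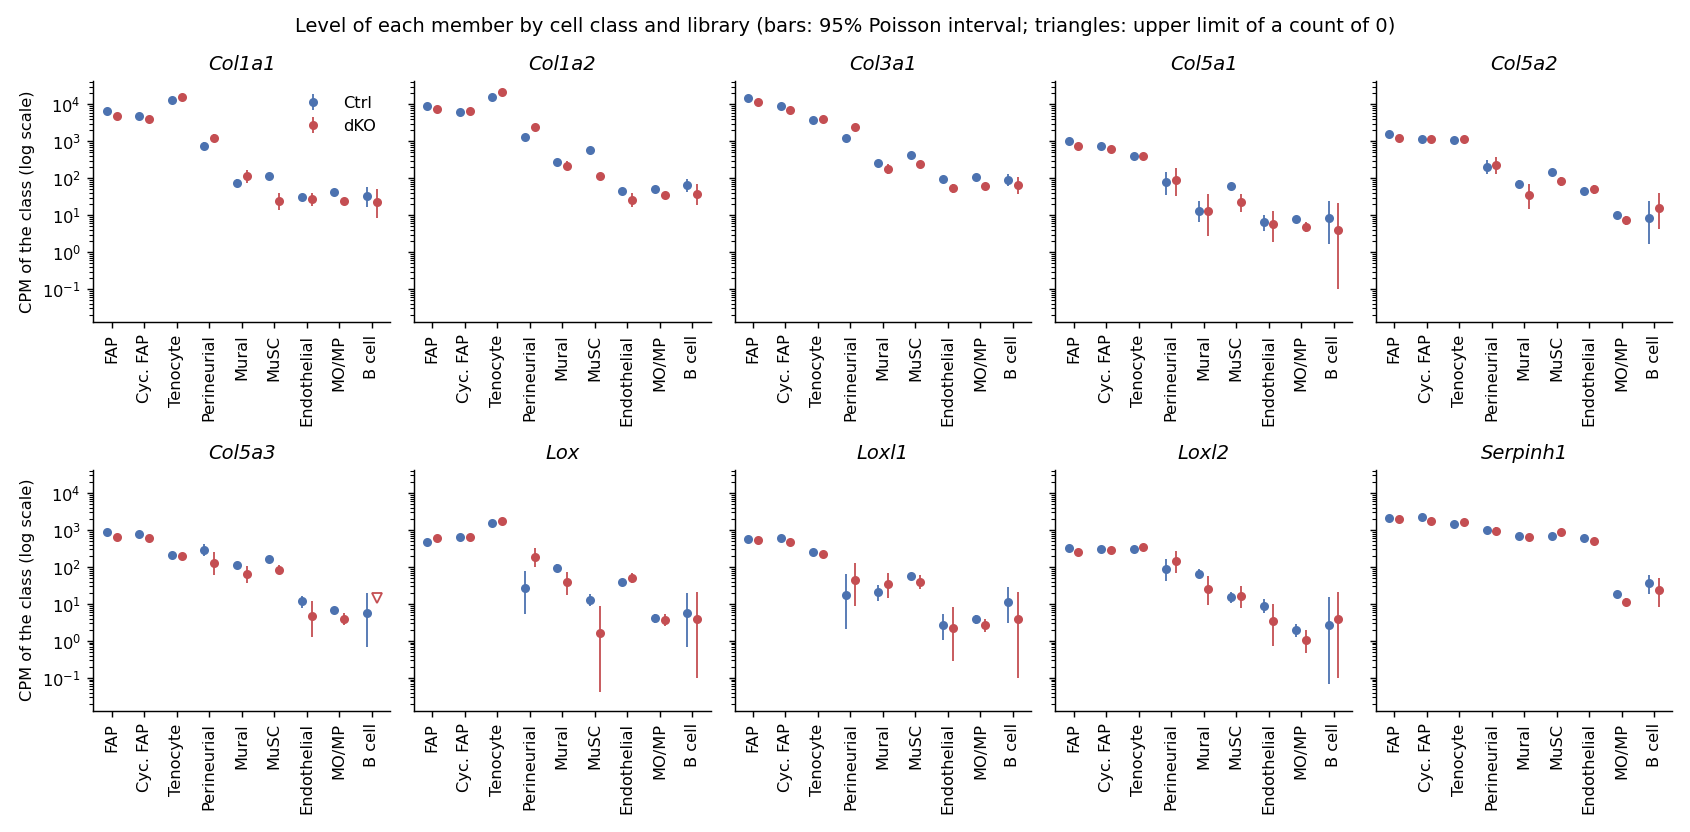
Level of each member (CPM of the class, log axis) in 9 cell classes, with Ctrl in blue and dKO in red, bars giving 95% Poisson intervals and the open triangle the upper limit of a count of 0. Col1a1, Col1a2 and Col3a1 were highest in FAP-like, cycling FAP-like and tenocyte-like cells, whereas Serpinh1 stayed above 500 CPM in mural-like, MuSC-like and endothelial-like cells too.

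The stromal classes differed in the balance of their collagen transcripts. For each Col1a1 UMI, FAP-like cells held 2.23 Col3a1 UMIs in Ctrl (2.21 to 2.25) and 2.38 in dKO (2.36 to 2.40), while tenocyte-like cells held 0.289 (0.280 to 0.298) and 0.254 (0.245 to 0.263). Tenocyte-like cells thus had far less Col3a1 for their Col1a1 than FAP-like cells in both libraries. Type I is the main collagen of tendon. Lox per Loxl1 also differed between tenocyte-like and FAP-like cells. There were 6.22 Lox UMIs per Loxl1 UMI in tenocyte-like cells of Ctrl (5.58 to 6.94), vs. 0.843 (0.817 to 0.871) in FAP-like cells. Mural-like cells of Ctrl had 4.53 (2.65 to 8.17), on 77 Lox and 17 Loxl1 UMIs, an interval that overlaps that of the tenocyte-like cells. In dKO this overlap was absent. Mural-like cells there had 1.125 (0.385 to 3.35), on 9 and 8 UMIs, vs. 7.92 (6.81 to 9.25) in tenocyte-like and 1.15 (1.12 to 1.19) in FAP-like cells. These are ratios of UMIs and not of transcripts per length.

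In FAP-like cells all 6 collagen chain genes were lower in dKO. Col1a1 stood at 6734 CPM in Ctrl and 4799 CPM in dKO, a ratio of 0.713 (0.706 to 0.719), the lowest of the 10 members. Its partner chain Col1a2 stood at 9241 and 7288 CPM, a ratio of 0.789 (0.782 to 0.795). Col3a1, the type III chain, stood at 15023 and 11436 CPM, a ratio of 0.761 (0.756 to 0.766). The type I and type III genes were thus lower together, with Col1a1 further down than Col1a2. The type V chains were lower by a like amount: Col5a1 at 1017 and 739 CPM (ratio 0.727, 0.709 to 0.745), Col5a2 at 1613 and 1256 CPM (0.779, 0.764 to 0.794) and Col5a3 at 889 and 654 CPM (0.735, 0.716 to 0.754). Summed, the 6 chains gave 34518 CPM in Ctrl and 26171 in dKO, a ratio of 0.758 (0.755 to 0.761).

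The lysyl oxidase genes differed from each other. Lox was higher in dKO, at 480 CPM in Ctrl and 600 CPM in dKO (log2 ratio 0.32, 0.28 to 0.37). Loxl1, whose enzyme also acts on elastin, stood at 569 and 521 CPM (0.916, 0.888 to 0.944), and Loxl2 at 319 and 255 CPM (0.8001, 0.767 to 0.835), close to the ratios of Col1a2 and Col5a2. Summed, these enzymes were level, at 1368 and 1377 CPM (1.01, 0.987 to 1.03). Serpinh1 stood at 2122 and 1982 CPM (0.934, 0.920 to 0.949), so its UMIs per collagen UMI were 0.0615 in Ctrl (0.0608 to 0.0622) and 0.0757 in dKO (0.0749 to 0.0766). Lox UMIs per Loxl1 UMI were 0.843 (0.817 to 0.871) in Ctrl and 1.15 (1.12 to 1.19) in dKO.

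**Figure D2:**
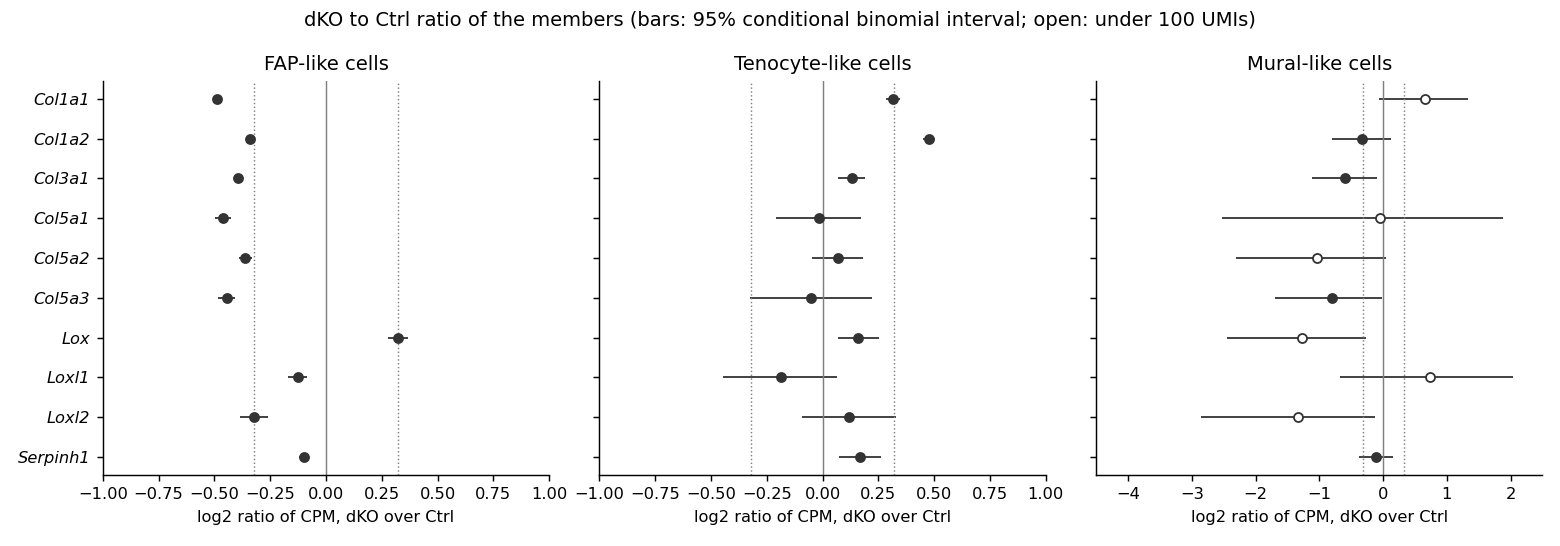
Log2 ratio of CPM, dKO over Ctrl, of each member in the 3 stromal classes, with 95% conditional binomial intervals. Dotted lines mark 20% below and 25% above, and open points rest on under 100 UMIs. Collagen chains lie to the left of 0 in FAP-like cells and near or to the right of it in tenocyte-like cells, and Lox lies to the right of 0 in both. The mural panel has a wider axis.

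A gene was counted as lower or higher in dKO when its CPM in dKO was at least 20% below or at least 25% above that in Ctrl and it had at least 100 UMIs in the class over both libraries. By this rule 6 of 10 members, all collagen chains, were lower in FAP-like cells, beside 13.2% of the 10257 genes with enough UMIs. Lox was the 1 member counted as higher, beside 7.84% of genes. Centred on the median gene, Col1a2 and Col5a2 passed the threshold no longer, which left 4 of 10 as lower, and Lox was not counted as higher under most other settings. The log2 ratio of Lox ran from 0.26 to 0.38 over all of them. The median log2 ratio was -0.35 over the members and -0.06 over all genes. Lox and Loxl2 sit at the threshold, at ratios of 1.2501 and 0.8001, with Lox inside and Loxl2 just outside, and no member differed by 1.5-fold, which 3.07% of genes did in the lower direction. Sums of the marker lists of other cells in FAP-like cells also differed between the libraries. The neutrophil list (7 of 7 genes with UMIs) summed to 33.5 CPM in Ctrl and 6.65 in dKO, the myocyte list (7 of 7) to 36.9 and 12.9, the endothelial list (8 of 8) to 16.4 and 7.31, the monocyte/macrophage (MO/MP) list (10 of 10) to 64.0 and 52.6 and the tenocyte list (10 of 10) to 2177 and 1887. Others were higher in dKO, with the MuSC list (7 of 8, Pax7 at 0) at 407 and 519 CPM, the lymphatic endothelial list (5 of 5) at 163 and 205, the B cell list (5 of 5) at 188 and 219 and the perineurial list (10 of 10) at 33.6 and 54.4. The FAP list itself (10 of 10) summed to 5410 and 6629 CPM, a difference that lay mostly in Ly6a (1348 and 2536 CPM, and 272 and 534 in all other cells), while Cd34 stood at 444 and 420 and Clec3b at 762 and 774. The part of these in the member ratios was not tested.

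The difference was read in single FAP-like cells. Each cell was thinned at random to 2000 UMIs, which kept 1035 of the Ctrl cells and 1097 of the dKO cells and left out 66 and 54 shallower ones. The median cell then held 10 Col1a1 UMIs in Ctrl and 6 in dKO, 26 and 18 Col3a1 UMIs, and 65 and 47 member UMIs. The 10th percentile was 25 member UMIs in Ctrl and 18 in dKO, and the 90th percentile 123 and 104, so the dKO value was the lower at both ends. Without thinning, 98.5% and 99.0% of FAP-like cells held a Col1a1 UMI, so most cells of both libraries had the transcript. B cell-like cells, with median depths of 2318 and 2556 UMIs, held a Col1a1 UMI in 8.45% and 6.90%.

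**Figure D3:**
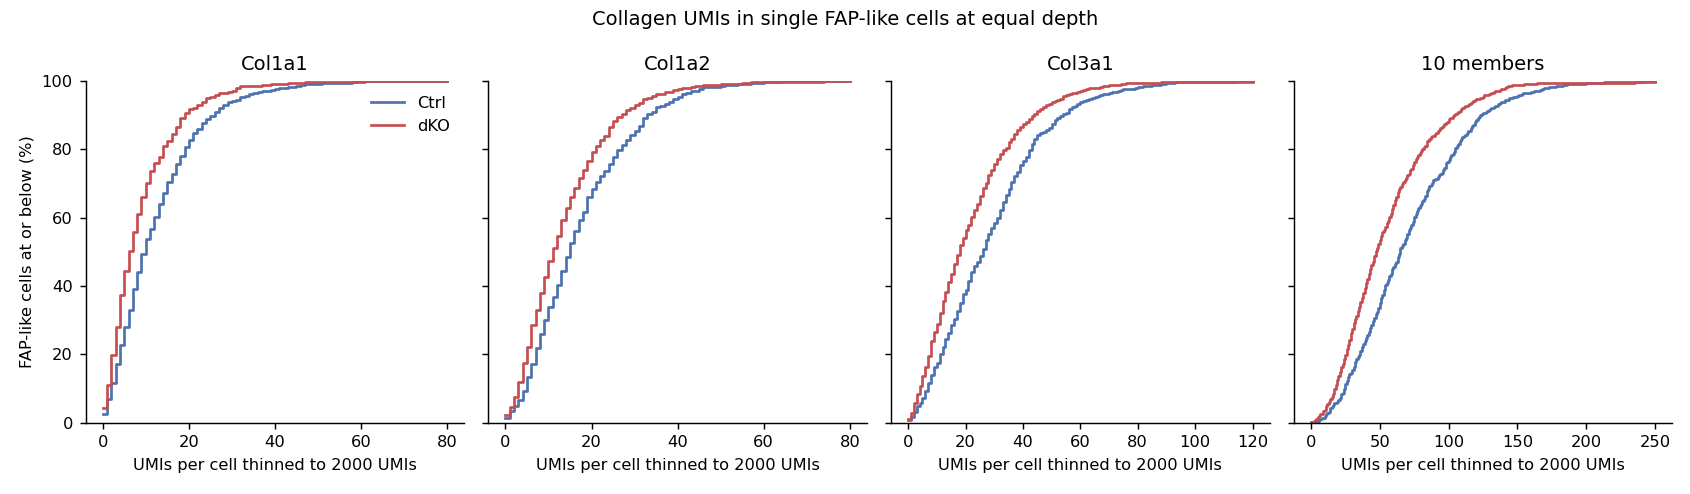
Share of FAP-like cells (y axis, %) with at most a given number of UMIs (x axis) after every cell was thinned to 2000 UMIs, for Col1a1, Col1a2, Col3a1 and the summed members, with Ctrl in blue and dKO in red. The dKO curve lies to the left of the Ctrl curve over most of the range, with medians of 47 and 65 member UMIs.

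For the lower members the share of thinned cells with a UMI moved with the level. Lox was seen in 44.0% of thinned FAP-like cells in Ctrl (40.9 to 47.1) and 52.2% in dKO (49.2 to 55.2), and in 74.5% and 80.7% of cells without thinning, vs. 1.41% and 1.15% of B cell-like cells. Col5a3 was seen in 72.5% (69.6 to 75.2) and 57.0% (54.0 to 59.9), and in 92.7% and 88.9% without thinning. Among thinned B cell-like cells it was seen in 0 of 97 and 0 of 71, with exact upper limits of 3.73% and 5.06%. More dKO cells thus had a Lox transcript and fewer a Col5a3 transcript at equal depth. Across single thinned FAP-like cells, Col1a1 and Col1a2 had a Pearson r of 0.77 in Ctrl and 0.73 in dKO, and Col1a1 and Lox 0.12 and 0.15. These describe cells of 1 library each, which share its depth and free RNA.

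FAP-like cells fell into 7 subsets when clustered again without the members, and subset names rest on marker genes too. A subset led by C1qtnf3, Fibin, G0s2, Fmod and 1500015O10Rik held 404 Ctrl and 317 dKO cells, a Stressed-like subset led by Clu, Zfp36, Itpkc, Tnfsf9 and Hsph1 held 294 and 376, and an Activated-like subset led by Il1rl1, Cxcl5, Inhba, Lif and Mthfd2 held 175 and 209. A Pi16 and Dpp4-like subset, led by Dmkn, Sbsn, Car8, Smpd3 and Dpp4, held 117 and 128 cells. A shallow subset led by Fmo2, Gdf10, Inmt, Rbp4 and C7, with a median of 2202.5 UMIs, held 88 and 104. The other subsets, led by Tenm2 and Shisa3 (18 and 10 cells) and by the macrophage genes Ccl4 and Ccl6 (5 and 7 cells), are too small to name.

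Collagen levels differed among the subsets, and the dKO value was the lower in each. The C1qtnf3 and Fibin subset had the highest summed member level, 45932 CPM in Ctrl and 36698 in dKO (ratio 0.799, 0.794 to 0.804). Stressed-like cells had 40062 and 31033 CPM (0.775, 0.769 to 0.780), and Activated-like cells 29501 and 24556 CPM (0.832, 0.826 to 0.839). The Pi16 and Dpp4-like cells, whose markers are those of the adventitial fibroblasts around vessels, had 25389 and 20858 CPM (0.822, 0.808 to 0.835), the lowest of the subsets with at least 50 cells. The Fmo2 and Gdf10 subset had 35325 and 31333 CPM (0.887, 0.864 to 0.911). In this subset the myocyte list (6 of 7 genes with UMIs, Myh1 at 0) stood at 235 and 8.76 CPM, the neutrophil list (3 of 7, Csf3r, Cxcr2, Mmp9 and Ly6g at 0) at 48.2 and 2.92 and the MuSC list (6 of 8, Pax7 and Cdh15 at 0) at 482 and 785, and their part in its ratios, those of single members included, was not tested. The subsets led by Tenm2 and Shisa3 and by Ccl4 and Ccl6 had ratios of 0.779 (0.728 to 0.832) and 0.811 (0.770 to 0.855). In the Ccl4 and Ccl6 subset the MO/MP list (10 of 10) stood at 1136 and 1662 CPM and the natural killer list (5 of 6) at 264 and 0. In the Tenm2 and Shisa3 subset the perineurial list (5 of 10) stood at 183 and 79.8 CPM. The endothelial list (6 of 8) stood there at 97.7 and 13.3 and the lymphatic endothelial list (2 of 5) at 165 and 373. The part of these lists in the 2 ratios was not tested. Markers of other cells also differed between the libraries in the 4 larger subsets. In the C1qtnf3 and Fibin subset the neutrophil list (6 of 7, Ly6g at 0) stood at 31.4 CPM in Ctrl and 6.53 in dKO, the myocyte list (7 of 7) at 59.9 and 15.0, the endothelial list (8 of 8) at 18.9 and 8.46 and the MO/MP list (10 of 10) at 65.9 and 40.6. In Stressed-like cells the neutrophil list (6 of 7, Cxcr2 at 0) stood at 30.1 and 7.84 CPM, the tenocyte list (10 of 10) at 2000.1 and 1469 and the perineurial list (8 of 10, Sfrp5 and Moxd1 at 0) at 23.9 and 50.3. In Activated-like cells the neutrophil list (6 of 7, Ly6g at 0) stood at 34.6 and 5.97 CPM, the endothelial list (8 of 8) at 11.03 and 4.26 and the perineurial list (6 of 10, Cldn1, Stra6, Moxd1 and Perp at 0) at 53.4 and 89.3. The list of cycling genes (8 of 8) stood at 72.9 and 38.6 CPM in Activated-like cells. In Pi16 and Dpp4-like cells the neutrophil list (5 of 7, Mmp9 and Ly6g at 0) stood at 48.1 and 5.82 CPM and the endothelial list (8 of 8) at 23.6 and 5.82. The neutrophil list was thus the lower in dKO in each of these subsets, and the part of these lists in the member ratios was not tested.

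Single members varied more. Col1a1 lay between 0.707 and 0.790 in the 5 subsets of at least 50 cells, with the Activated-like subset nearest to 1. Col3a1 lay between 0.760 and 0.821 in 4 of them and at 0.962 (0.921 to 1.00) in the Fmo2 and Gdf10 subset. Among these subsets the Col5a3 ratio was lowest in the C1qtnf3 and Fibin subset, at 888 CPM in Ctrl and 557 in dKO (0.627, 0.597 to 0.659), and nearer to 1 in the Activated-like subset, at 1015 and 922 CPM (0.908, 0.870 to 0.948), and in the Fmo2 and Gdf10 subset, at 640 and 642 CPM (1.00, 0.825 to 1.22). Type V chains thus did not all differ alike from subset to subset. By the same rule 6 members (Col1a1, Col3a1, the type V chains and Loxl2) were lower in the C1qtnf3 and Fibin subset, beside 12.5% of genes, and the same 6 in Stressed-like cells, beside 16.9%. Col1a1, Col5a1 and Col5a3 were lower in Pi16 and Dpp4-like cells (15.1%), and Col1a1 and Col5a1 in Activated-like cells (10.9%) and in the Fmo2 and Gdf10 subset (14.8%).

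Lox was higher in dKO in each subset. It stood at 491 and 635 CPM in the C1qtnf3 and Fibin subset (1.29, 1.23 to 1.36), 387 and 489 CPM in Stressed-like cells (1.26, 1.18 to 1.35) and 673 and 794 CPM in Activated-like cells (1.18, 1.12 to 1.24). It stood at 239 and 294 CPM in Pi16 and Dpp4-like cells (1.23, 1.05 to 1.45). In the Fmo2 and Gdf10 subset the ratio was 2.19 (1.57 to 3.10) on 51 and 123 UMIs, and the smallest subsets rested on 10 and 15 and on 21 and 69 UMIs. It was the 1 member counted as higher in the C1qtnf3 and Fibin subset (9.95% of genes), in Stressed-like cells (10.2%) and in the Fmo2 and Gdf10 subset (19.4%), and 0 were in Activated-like (8.47%) and Pi16 and Dpp4-like cells (14.0%). The Lox ratio was above 1 in subsets of high and of low collagen level alike. Serpinh1 stayed between 0.911 and 1.13 in the subsets of at least 50 cells.

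**Figure D4:**
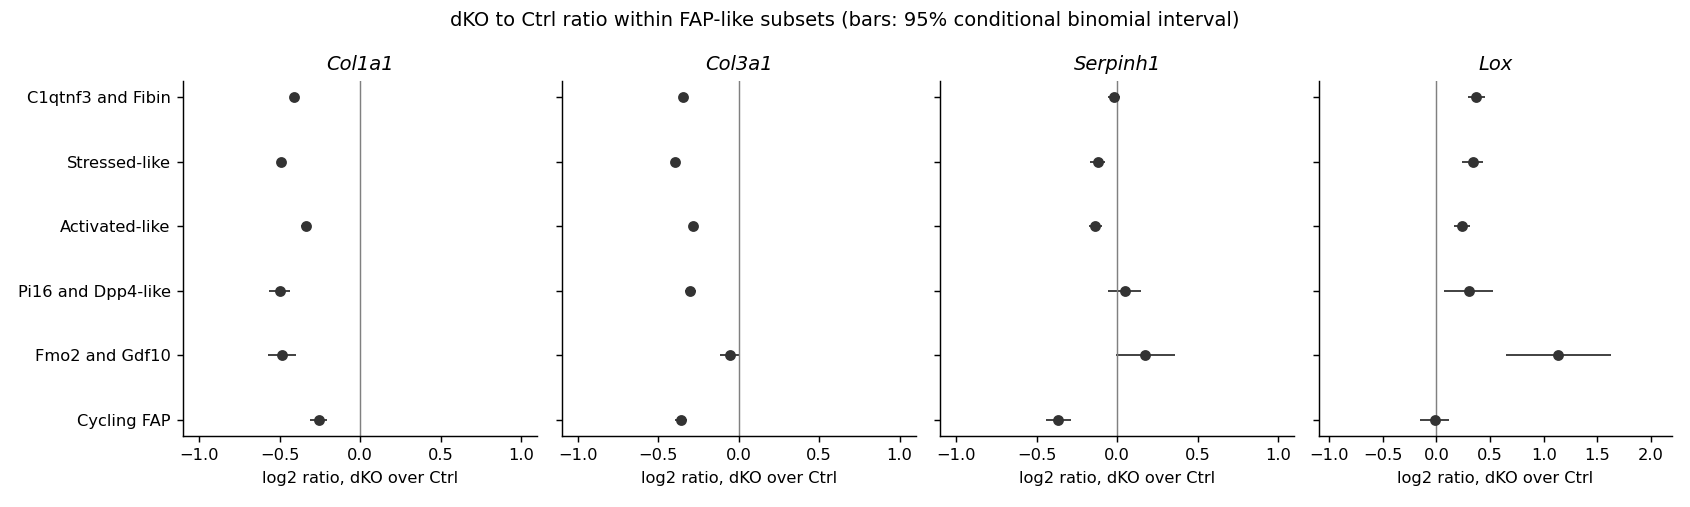
Log2 ratio of CPM, dKO over Ctrl, of Col1a1, Col3a1, Serpinh1 and Lox (x axis, wider for Lox) in the 5 FAP-like subsets of at least 50 cells and in cycling FAP-like cells, with 95% conditional binomial intervals. Col1a1 lies left of 0 in every group shown, and Lox right of 0 in every subset but not in cycling cells.

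Because the subset of highest collagen level held 36.7% of FAP-like cells in Ctrl and 27.5% in dKO, the difference was split into a part from subset shares and a part within subsets. Of the summed difference of -8478 CPM, -7393 CPM (87.2%) arose within subsets and -1085 CPM from their shares. Among the members lower in dKO, the within-subset part ran from 73.6% for Serpinh1 and 76.2% for Loxl1 to 103% for Col5a3, with 87.1% for Col1a1 and 87.8% for Col1a2. For Lox it was 122 of 120 CPM in this clustering.

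Cycling FAP-like cells, 42 in Ctrl and 41 in dKO, were kept apart from FAP-like cells. They come from a cycling cluster of 216 cells that held FAP and MO/MP markers, split by which marker level was higher, with 27 cells near the dividing line. Their summed members stood at 26575 and 23059 CPM (0.868, 0.854 to 0.881). Col1a1 stood at 4842 and 4050 CPM (0.836, 0.806 to 0.867) and Col3a1 at 8827 and 6889 CPM (0.780, 0.759 to 0.802). Col1a2, at 6335 and 6530 CPM (1.03, 1.00 to 1.06), and Lox, at 659 and 651 CPM (0.989, 0.899 to 1.09), differed by little more than counting error or less. Serpinh1 was lower here, at 2324 and 1804 CPM (0.776, 0.736 to 0.819).

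In tenocyte-like cells the type I genes were higher in dKO. Col1a1 stood at 12841 CPM in Ctrl and 16000 CPM in dKO (1.246, 1.22 to 1.27), and Col1a2 at 15554 and 21661 CPM (1.39, 1.37 to 1.42). Col3a1 stood at 3710 and 4060 CPM (1.09, 1.05 to 1.14). Fibrillar chains summed to 33805 and 43460 CPM (1.29, 1.27 to 1.30), so the direction was opposite to that in FAP-like cells. The type V chains differed by less than counting error, at 0.989 (0.866 to 1.13) for Col5a1, 1.05 (0.968 to 1.13) for Col5a2 and 0.965 (0.797 to 1.17) for Col5a3. Lox stood at 1553 and 1736 CPM (1.12, 1.05 to 1.19) and Serpinh1 at 1468 and 1649 CPM (1.12, 1.05 to 1.20). The intervals of Loxl1 (0.877, 0.734 to 1.05) and Loxl2 (1.09, 0.938 to 1.26) included 1.

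By the same rule 0 of 10 members were lower in tenocyte-like cells (12.6% of 3133 genes) and 1, Col1a2, was higher (13.2%), with Col1a1 just under the threshold at 1.246. Under other settings 0 to 3 members were counted as higher. The median log2 ratio was 0.12 over members and 0.01 over all genes. Single tenocyte-like cells varied widely: thinned to 2000 UMIs, they held a median of 14.5 Col1a1 UMIs in Ctrl (mean 22.7, SD 24.1, n = 142 cells) and 21.5 in dKO (mean 31.5, SD 34.6, n = 78 cells). The 10th percentiles were 4 and 7.7 and the 90th percentiles 47 and 57, so the dKO value was the higher at both ends. As in FAP-like cells, where the Col1a1 means were 12.4 (SD 10.2) and 8.90 (SD 8.48), the SD between cells was larger than the difference between the libraries. Summed tenocyte markers (10 of 10 with UMIs) were 17224 and 17485 CPM, and most of this sum was Thbs4, at 11799 and 11090 CPM. Single markers of the list moved more than the sum. Tnmd stood at 1816 and 2189 CPM, Cilp2 at 843 and 1160, Kera at 464 and 596 and Ptgis at 297 and 370, each higher in dKO, while Egr3 was lower at 41.2 and 21.7. Scx (429 and 452), Chad (1189 and 1263), Wif1 (241 and 250) and Mkx (104 and 93.6) differed less. The part of these markers in the member ratios was not tested. The FAP list (10 of 10) stood at 835 and 941 CPM, the neutrophil list (6 of 7, Cxcr2 at 0) at 34.1 and 6.85, the MO/MP list (8 of 10, Ccr2 and Chil3 at 0) at 64.4 and 30.8 and the MuSC list (5 of 8, Pax7, Myf5 and Myog at 0) at 1380 and 983, and their part was not tested.

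Mural-like cells gave too few UMIs for most members, with 1390 in Ctrl and 318 in dKO. Summed members stood at 1691 and 1374 CPM (0.812, 0.717 to 0.918). The chaperone gene Serpinh1 held the most UMIs, at 697 and 648 CPM (0.929, 0.771 to 1.11). Col3a1 stood at 266 and 177 CPM (0.665, 0.464 to 0.931), which is only a few times its level in B cell-like cells (91.2 and 65.8 CPM). Of the 4 members with at least 100 UMIs, 3 were lower by at least 20% (Col1a2, Col3a1 and Col5a3), beside 20.5% of 1811 genes, and 0 were higher, beside 22.4%. Lox rested on 77 and 9 UMIs. Col1a1, on 61 and 27 UMIs, stood at 74.2 and 117 CPM, a log2 ratio of 0.65 (-0.06 to 1.33). These values depended on the cells kept: with no doublets removed the summed log2 ratio was -0.71 instead of -0.30, Col5a3 was higher in dKO, with a log2 ratio of 0.34, and Col1a1 lower, at -1.07. The genes of the mural marker list (10 of 10 with UMIs) summed to 15267 and 10260 CPM. The pericyte genes Rgs5 (8525 and 3676 CPM), Abcc9 (619 and 238), Kcnj8 (361 and 207) and Higd1b (165 and 90.7) were lower in dKO, and Cspg4 stood at 364 and 302. The smooth muscle genes Cnn1 (271 and 302), Lmod1 (327 and 475) and Des (414 and 842) and the mural gene Notch3 (659 and 791) were higher, and Myh11 stood at 3560 and 3335. The endothelial list (8 of 8) stood at 2290 and 1309 CPM. Their part in the member ratios was not tested.

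Perineurial-like cells, 24 in Ctrl and 12 in dKO, held 567 and 541 member UMIs at 4995 and 7928 CPM (1.59, 1.41 to 1.79). Of their 4 members with at least 100 UMIs, Col1a1, Col1a2 and Col3a1 were higher by the same rule, beside 34.4% of 256 genes, and 0 were lower, beside 28.9%. Outside the stroma, MuSC-like cells held collagen transcripts in Ctrl above the free RNA level. Col1a2 stood at 596 CPM in 116 Ctrl cells and 113 CPM in 30 dKO cells, and Col3a1 at 415 and 241 CPM, vs. 66.3 and 38.7 CPM of Col1a2 and 91.2 and 65.8 CPM of Col3a1 in B cell-like cells. Serpinh1 stood at 671 and 900 CPM there. The MuSC-like dKO values rest on few cells, with 70 Col1a2 UMIs. The MuSC-like class was led by Gal, Ttn, Myog, Chrna1 and Ankrd1. Markers of MuSCs (8), of cycling cells (8) and of myocytes (3) were enriched in it, so it need not hold stem cells alone. The part of a differing mix of stages in these values was not tested.

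Over all kept cells the summed members were not lower in dKO, and FAP-like cells were 27.5% of kept cells in Ctrl (26.1 to 28.9) and 37.4% in dKO (35.7 to 39.1). The summed level was 16428 CPM in Ctrl and 17462 in dKO (1.06, 1.06 to 1.07). Col1a1 stood at 3120 and 3081 CPM (0.988, 0.979 to 0.996) and Col3a1 at 5968 and 6238 CPM (1.05, 1.04 to 1.05). Lox stood at 261 and 386 CPM (1.48, 1.44 to 1.52), the highest ratio of the members. FAP-like cells held 67.0% of Lox UMIs in Ctrl and 78.4% in dKO, and tenocyte-like cells 22.6% and 12.9%. A kept cell held 167 member UMIs on average in Ctrl and 172 in dKO, while a FAP-like cell held 513 and 393. The share of cells and the level per cell thus differed in opposite directions in these libraries.

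Other genes of the collagen pathway were read from 7 lists with 71 genes in the matrices, of which 65 had at least 100 UMIs in FAP-like cells. Of these 17 were lower and 9 higher by the same rule, beside the 13.2% and 7.84% of all genes, with a median log2 ratio of -0.15. In each list the pair at each end is named. Among genes that modify the chains, 2 of 13 were lower and 0 higher. Colgalt2, a collagen galactosyltransferase, stood at 20.9 and 14.5 CPM (log2 ratio -0.53) and the lysyl hydroxylase gene Plod1 at 73.9 and 54.7 (-0.43), while its relatives Plod3 (78.7 and 82.0, 0.06) and Plod2 (208 and 219, 0.07) were near level. Among folding and export genes, 2 of 12 were lower and 0 higher. These were the prolyl isomerase genes Fkbp10 (147 and 105 CPM, -0.48) and Fkbp14 (64.3 and 48.3, -0.41), whereas another isomerase gene, Ppib, was at 864 CPM in both libraries, and Tmem38b, an ion channel gene of the endoplasmic reticulum, stood at 8.20 and 9.20 (0.16).

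Among propeptide processing genes, 1 of 6 was lower and 2 higher. The procollagen proteinase genes Adamts14 (10.2 and 7.70 CPM, -0.40), Adamts2 (297 and 270, -0.14) and Adamts3 (8.61 and 11.7, 0.44) spread to both sides, and Pcolce2, an enhancer of propeptide removal, stood at 82.0 and 120 CPM (0.55). Fibril assembly genes gave 4 of 13 lower and 1 higher. Postn, which encodes the matrix protein periostin, stood at 2966 and 1630 CPM (-0.86), further down than any member, and Emilin1, an elastic fibre gene, at 123 and 87.5 (-0.50). On the other side were the fibulin genes Efemp2 (162 and 178, 0.14) and Fbln1 (102 and 136, 0.41). Matrix turnover genes gave 3 of 7 lower and 1 higher. The protease gene Fap (167 and 104 CPM, -0.68) and the collagen uptake receptor gene Mrc2 (209 and 152, -0.46) were lower, Timp2 stood at 1029 and 1038 (0.01), and Timp1, which encodes an inhibitor of metalloproteinases, was higher at 975 and 1713 (0.81).

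Genes responsive to TGF-beta and genes of myofibroblasts gave 5 of 10 lower and 3 higher. Lrrc15, a marker of TGF-beta driven fibroblasts, stood at 28.2 and 9.91 CPM (-1.51) and Cthrc1 at 253 and 166 (-0.61). The contractile cell gene Tagln (26.4 and 41.7, 0.66) and the cartilage matrix gene Comp (66.0 and 171, 1.37) were higher. In the last list, 4 of 7 other fibrillar collagens and lysyl oxidases had enough UMIs, and 0 were lower and 2 higher. Loxl3 stood at 88.2 and 72.5 CPM (-0.28), Col27a1 at 64.6 and 58.6 (-0.14), Col11a1 at 4.24 and 5.74 (0.44) and Loxl4 at 14.3 and 19.7 (0.47). In tenocyte-like cells 60 of the 71 genes had enough UMIs, with 6 lower and 20 higher, beside 12.6% and 13.2% of all genes there. In mural-like cells 13 had enough, with 2 lower and 5 higher, beside 20.5% and 22.4%.

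**Figure D5:**
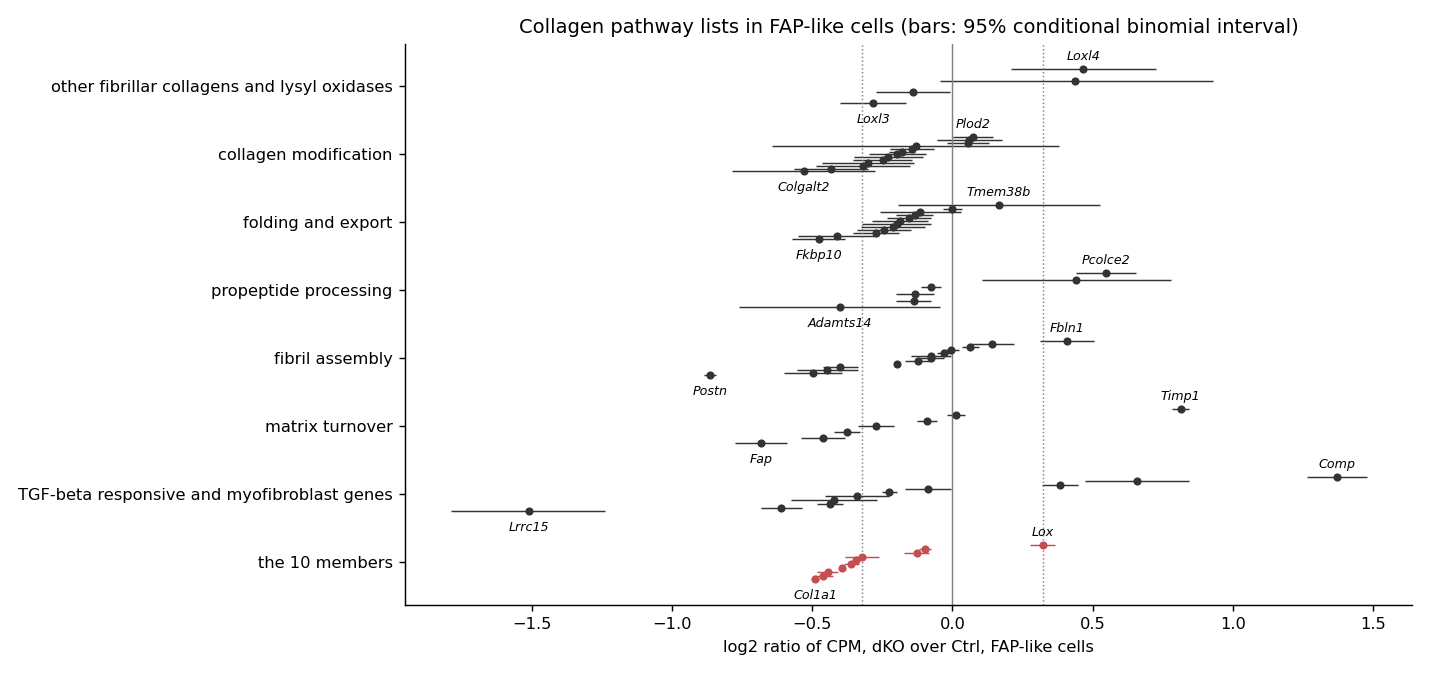
Log2 ratio of CPM, dKO over Ctrl, in FAP-like cells for the genes of 7 collagen pathway lists (black) and the 10 members (red), with 95% conditional binomial intervals, dotted lines at 20% below and 25% above and the end genes of each list named. Postn, Fap and Lrrc15 lie further left than any member, and Timp1 and Comp further right than Lox.

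The genes whose levels most resembled the summed members were sought over 25 pools of 13 cell classes and 2 libraries, by Pearson r of log2(CPM + 10) among 7252 genes with at least 1000 UMIs. The 10 genes of highest r were Col6a1 (0.978), Bicc1, Pcolce, Medag, Dnm3os, Fkbp10, Nnmt, Kdelr3, Rcn3 and Plod2 (0.967), of which Pcolce, Fkbp10 and Plod2 are in the pathway lists. Members themselves had r from 0.918 (Serpinh1) to 0.989 (Col5a2). With a pseudocount of 1 CPM, 5 of these 10 genes were among the 10 of highest r. The pools of a class share cells of like kind, so these values describe the pattern across classes.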

How the data were processed

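Single-cell RNA was measured in 1 library each of Ctrl and dKO. The authors deposited matrices of raw UMI counts per gene and cell barcode. The submitters' processing notes name Cell Ranger 7.0.0, Seurat 4.3.0 and the mm10 build, while the matrix header names version 3.0.2. The capture chemistry is not given in the sources used here. The matrices held 4527 and 3483 barcodes, 7 of them shared between the libraries, and 0 mitochondrial genes, so no filter on mitochondrial reads could act.

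Cells with at least 500 genes (4335 and 3329) were kept. The paper gives the same counts for its cells after filtering and doublet removal. Whether doublets had been taken out before deposit is not stated in the sources used here. Scrublet scores, computed with Scanpy 1.11.5, passed the automatic threshold in only 4 and 14 cells, so the top-scoring 7.5% were dropped instead (325 and 250). Ties at the limiting score, 52 cells in Ctrl and 28 in dKO, were divided by barcode order. Cells were integrated and clustered with Seurat 5.3.0 in R 4.3.3 (40 dimensions, resolution 0.8) on 1955 variable genes without the members and the pathway lists. FAP-like cells were clustered again (40 dimensions, resolution 0.4) on 1924 variable genes, from which the subset panels were left out too. Clusters were named from 18 marker lists, of which 133 of 136 genes were in the files. The handling of the cycling cluster and of subsets under 50 cells was set after the clusters had been seen.

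Raw UMIs were summed per class and library, and CPM is per 1000000 UMIs of that class, not per gene length. With 1 library per group no test was run. Intervals of CPM are exact Poisson, of ratios exact conditional binomial and of shares exact Clopper-Pearson, at the 95% level. They cover counting error only and treat UMIs as separate molecules. A gene with at least 100 UMIs was counted as lower when at least 20% below Ctrl and as higher when at least 25% above. Cells were thinned to 2000 UMIs for distributions and shares. The code was tested on simulated data. Named pathway genes are the pair with the lowest and the pair with the highest log2 ratio of each list in FAP-like cells, and likeness names the 10 genes of highest r. Members and lists were chosen with earlier results of these data known. Alternatives changed the doublet removal, cell filter, integration, clustering genes, resolution, class assignment, scaling, fold and UMI minimum.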

Additional observations from a re-analysis of the deposited data

Results flagged for a closer look

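Several values were lower in dKO in one stromal class and higher in another, with both intervals leaving out a log2 ratio of 0. The difference between the classes was not tested, since each class of each group is 1 library. Between FAP-like and tenocyte-like cells the log2 ratios of dKO over Ctrl lay 0.81 apart for Col1a1 (-0.49 and 0.32), 0.82 for Col1a2 (-0.34 and 0.48), 0.52 for Col3a1 (-0.39 and 0.13) and 0.27 for Serpinh1 (-0.10 and 0.17). For the 10 members summed they lay 0.71 apart (-0.36 and 0.34). Between mural-like and tenocyte-like cells they lay 0.72 apart for Col3a1 (-0.59 and 0.13), on 219 and 41 UMIs in mural-like cells, and 0.64 apart for the 10 members summed (-0.30 and 0.34).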

How the results depend on the processing

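No paired analysis was possible because each group has 1 library. The summed log2 ratio in FAP-like cells, -0.36 as reported, lay between -0.38 and -0.30 over 13 alternatives, and none of the 10 members changed sign there. It was -0.36 with no doublets removed, at the lower clustering resolution, as a mean of the CPM of each cell and with cycling FAP-like cells, -0.37 with no integration and without the Stressed-like subset, -0.38 on totals without the pathway genes and without the 1% of cells with most member UMIs, and -0.30 when centred on the median gene. The alternatives with cycling cells, without the Stressed-like subset and without the smallest subsets were chosen after seeing the data. Members counted as lower there, 6 as reported, ran from 0 to 7: 0 at 1.5-fold, 4 when centred, where Col1a2 (-0.28) and Col5a2 (-0.30) were lost, and 5 to 7 otherwise. Lox, the 1 counted as higher, was lost under most settings.

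The summed log2 ratio in tenocyte-like cells, 0.34 as reported, was 0.25 with no doublets removed, 0.38 with at least 200 genes per cell and with no integration, 0.31 with classes set by marker level, 0.44 as a mean of cell CPM, 0.37 on totals without the pathway genes and 0.41 without the 1% of cells with most member UMIs. There Col1a1 ran from 0.20 to 0.51, Col1a2 from 0.36 to 0.56 and Col3a1 from 0.03 to 0.45, and 0 members (at 1.5-fold) to 3 (mean of cell CPM) were counted as higher, 1 as reported. In mural-like cells with no doublets removed the summed log2 ratio was -0.71 instead of -0.30, 7 members instead of 3 were lower and Col5a3 was reversed, at 0.34. Col1a1, 0.65 as reported with an interval that included 0, was -1.07 there and ran up to 0.80 elsewhere. In mural-like cells 1 member was lower with classes set by marker level and 6 with a minimum of 30 UMIs.

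Over all kept cells the summed log2 ratio, 0.09 as reported, was 0.11 with no doublets removed and 0.10 with at least 200 genes. The share of member UMIs in FAP-like cells was 87.8% in Ctrl and 90.3% in dKO with no doublets removed, 90.7% and 91.4% with at least 200 genes, 84.2% and 85.2% with no integration, 84.1% and 85.2% with all variable genes, 89.4% and 91.4% at the lower resolution and 82.3% and 83.6% with classes set by marker level. The within-subset part of the FAP-like difference was -6748, -7163 and -7151 CPM with no doublets removed, at least 200 genes and the lower resolution. The cause of these shifts was not tested. Few UMIs limited what mural-like cells could show, with 318 member UMIs in dKO, and few cells the MuSC-like (30) and perineurial-like (12) dKO values.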
